A study of Mus musculus with 32 samples.

Results

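The histone cluster genes encode the core and linker histones that package newly copied DNA. The members were all genes whose name on the array began with Hist1h, Hist2h, Hist3h or Hist4h, a rule that used no measured value. It gave 34 of 27962 gene names and 44 of 41174 probes. By class they were 6 H1, 11 H2A, 8 H2B, 3 H3 and 6 H4 genes. By position, 24 carried Hist1 names and their probes lay on chromosome 13, 6 were Hist2 genes on chromosome 3, 3 were Hist3 genes on chromosome 11 and 1 was a Hist4 gene on chromosome 6. All 34 names matched a RefSeq gene. Testing required a probe well above background on 4 or more of the 32 arrays, which left 32 members among 19954 genes. Hist1h2be, well above background on 0 arrays, and Hist2h2aa2, on 1 array, did not pass.

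Most cluster histone genes are replication-dependent: their mRNA rises as DNA synthesis begins and is lost when synthesis stops, so that histone supply follows the amount of new DNA. These mRNAs usually carry no poly(A) tail and end a few bases past a short stem-loop, which is bound by the stem-loop binding protein Slbp. Some cluster genes can also give polyadenylated transcripts that run past the stem-loop. The thymus is rich in dividing precursors, and its thymocytes are among the cells most sensitive to p53-dependent death after irradiation.

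Thymocytes were taken from 6-week C57Bl/6 mice, with RNA of 1 male and 1 female pooled for each sample. The mice carried p53 with proline (P72) or arginine (R72) at codon 72, and each of these genotypes had 4 arrays untreated (0 h), 4 arrays at 2 h and 4 arrays at 4 h after 5 Gy of gamma radiation, from 4 independent experiments. A further 8 arrays came from p53+/+ and p53-/- mice, with 2 untreated arrays, 1 at 2 h and 1 at 4 h for each genotype. Separate pools are not stated for the 2 untreated arrays of these genotypes, so their spread may be technical. Each array measured Cy3-labelled cRNA in a single colour. Levels below are log2 signal relative to the 75th percentile of the same array, so that 0 is the brightness of that percentile. They were compared only within a probe, never between probes, and replicates are listed in the order 1 to 4. A gene was called when its limma p-value, adjusted by Benjamini-Hochberg over all tested genes, was below 0.05. The extracts were bulk RNA, in which fewer cells of a type and less RNA per cell cannot be told apart.

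The 75th percentile of signal ran from 260.4 to 1017 intensity units over the arrays, 52.2 to 71.2% of probes were well above background, and no probe was saturated. Cdkn1a, the p53-induced cell cycle inhibitor, served as the check of the genotypes. Its mean level went from -2.99 at 0 h to 1.51 at 4 h in P72 and from -2.64 to 1.06 in R72. In p53-/- it was -3.35 at 0 h, -2.55 at 2 h and -2.15 at 4 h, against 1.63 at 4 h in p53+/+. The level of Trp53 itself was 0.07 (mean of 2 arrays) in untreated p53+/+ and -0.17 in untreated p53-/-. Where that probe lies relative to the deletion is not given in the labels, so it does not check the genotype. All 9 tested markers of double-positive thymocytes were summed, and the sum stayed between 781 and 1180 times the array's 75th percentile in all P72 and R72 arrays.

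Many member probes are close to identical, and the H2B pair below shows how far the genes can be read one by one. The differing bases are in capitals, and both sequences are 60-base array probes.

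Hist1h2bk: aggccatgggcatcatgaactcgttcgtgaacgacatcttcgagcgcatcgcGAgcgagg

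Hist1h2bm: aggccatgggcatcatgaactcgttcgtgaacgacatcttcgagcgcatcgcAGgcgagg

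The first lies at chr13:21402048-21402107 and the second at chr13:21088259-21088318 (mm7, + strand, per the file headers). They match at 58 of 60 bases, so either transcript could bind either probe, and the values of the pair are not independent. The Hist3h2bb probe, on chromosome 11, matches that of Hist1h2bk at 55 of 58 aligned bases. The same holds for an H2A pair, which turned the other way after irradiation.

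Hist1h2ai: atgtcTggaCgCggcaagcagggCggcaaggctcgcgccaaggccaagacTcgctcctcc

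Hist1h2ak: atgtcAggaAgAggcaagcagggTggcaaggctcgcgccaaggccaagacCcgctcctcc

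These lie on the minus strand at chr13:21153148-21153207 and chr13:21119757-21119816 (mm7) and match at 55 of 60 bases. Of the 44 member probes, 11 shared at least 25 bases with a probe of another member. The accessions that the array annotation gives for a probe name 1 RefSeq gene for 24 probes, more than 1 for 13 and none for 7. No probe was matched to RefSeq by sequence, so 1 listed gene does not mean that a probe is specific. The Hist1h2ak probe above lists 1 gene.

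Probes also differ in where they sit relative to the 3' stem-loop. The letters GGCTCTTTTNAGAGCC, which form the stem-loop of replication-dependent histone mRNA, were searched in each probe on the given strand, partial matches at a probe's end included. The 30-base windows below have those letters in capitals and come from the 3 member probes in which they were found.

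Hist1h2ab: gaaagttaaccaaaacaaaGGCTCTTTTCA

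Hist1h2ae: CTTTTCAGAGCCattcacttaattcagtaa

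Hist1h3a: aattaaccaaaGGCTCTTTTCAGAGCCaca

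The Hist1h2ab probe (chr13:23117325-23117384, mm7, + strand) ends inside the stem-loop, with 49 bases before it. The Hist1h2ae probe (chr13:22936613-22936672, - strand) begins inside the stem-loop and has 48 bases past it. The Hist1h3a probe (chr13:23127689-23127748, - strand) holds the whole stem-loop, with 41 bases before and 3 after.

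At 4 h after irradiation the histone genes of P72 thymocytes moved in both directions, also within a class. The H2A genes Hist1h2ab, Hist1h2ai, Hist1h2ak, Hist2h2ac and Hist3h2a, the linker gene Hist1h1b and Hist1h4i fell, while 6 of 7 H2B genes, Hist1h3a, the linker gene Hist1h1d and the H2A genes Hist1h2ac and Hist1h2ae rose. Of the 32 tested members, 14 were called higher and 7 lower. The rate over all genes was 56.6% called, 37.1% higher and 19.6% lower, so that the total share of members called was not far from the background. The median member difference was 0.17 log2, against 0.13 over all genes. By class, 6 of 7 H2B genes and 3 of 3 H3 genes rose and none of these fell, whereas 5 of 10 H2A genes fell and 2 rose. Among H1 genes 3 of 6 rose and 1 fell, and among H4 genes 0 of 6 rose and 1 fell. The median difference was 1.29 for H2B, 0.44 for H1, 0.34 for H3, -0.07 for H4 and -0.51 for H2A.

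The scaling mattered for the balance of calls. Centring each array on its median in place of its 75th percentile moved the median of all genes at 4 h in P72 from 0.13 to -0.48, and member calls became 8 higher and 16 lower. The share of called genes that were higher, over all genes, went from 65.4 to 28.3%. Under median centring, quantile normalization and the authors' value table alike, 15 of the 21 members kept their call, 8 higher and 7 lower. The risers that kept it were Hist1h1d, Hist1h2ac, Hist1h2ae, Hist1h2ba, Hist1h2bk, Hist1h2bm, Hist3h2bb and Hist1h3a. Of the other risers, Hist1h1c, Hist1h3d, Hist2h2be and Hist2h3c1 turned negative under median centring.

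**Figure D1:**
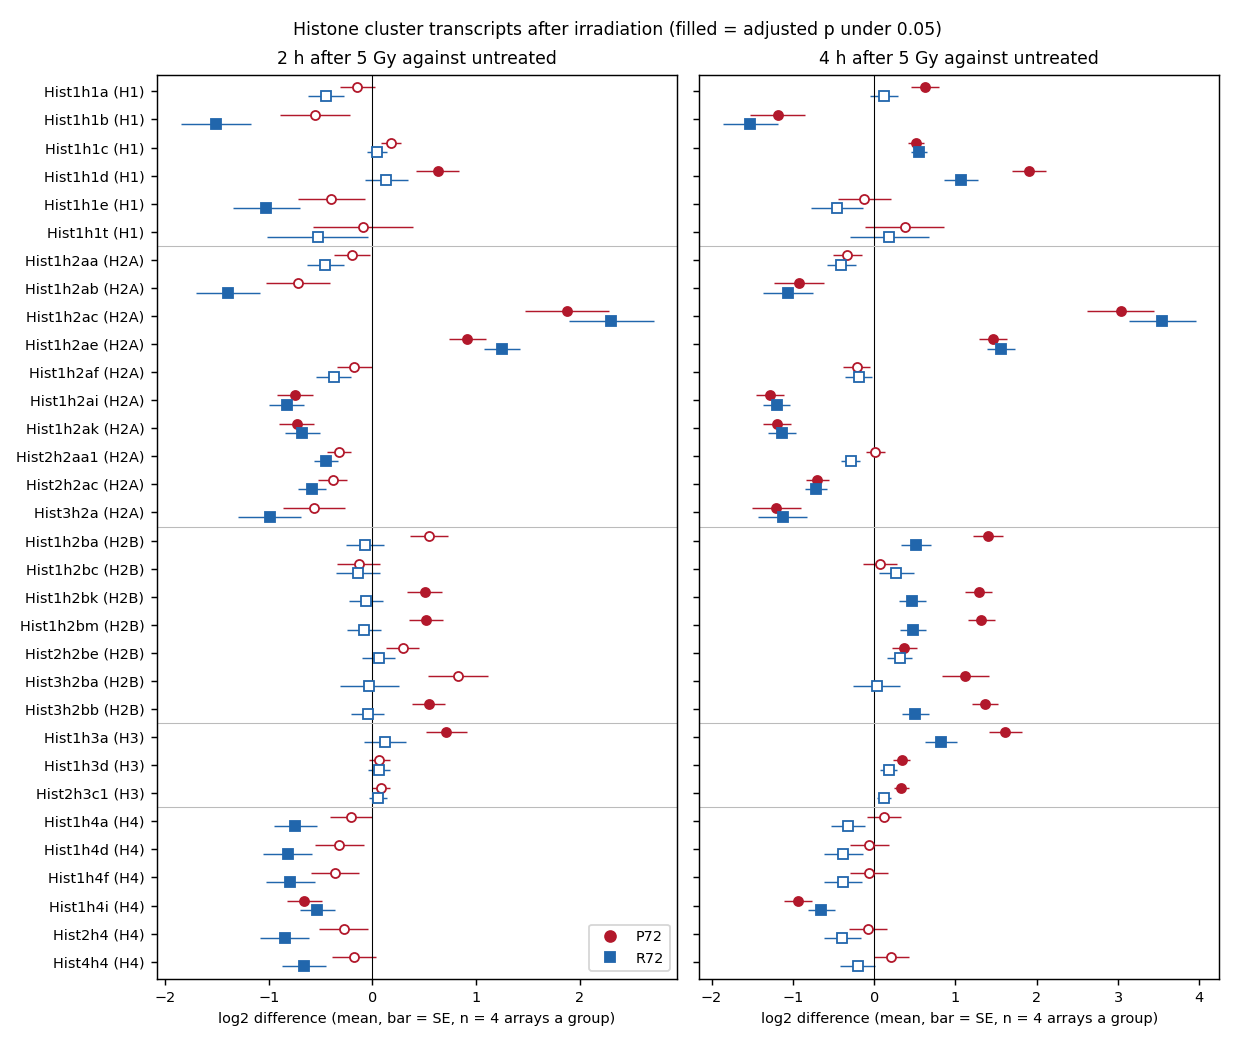
Log2 difference at 4 h against 0 h for each tested member in P72 and R72, ordered by class; points are differences and bars their SE, with filled points for an adjusted p under 0.05. The H2B genes lie to the right of 0 and several H2A genes to the left in both genotypes.

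Linker histones bind where DNA enters and leaves the nucleosome. Hist1h1d stood at 0.58, 1.64, 1.02 and 1.06 in untreated P72 arrays, at 1.45, 1.83, 1.51 and 2.03 at 2 h, and at 3.02, 2.98, 3.25 and 2.68 at 4 h. Every array at 4 h lay above every array at 0 h. The gain was 1.91 ± 0.21 log2 (SE, n = 4 per group), or 3.75-fold, with an adjusted p of 4.21e-07. In R72 the levels were 1.57, 1.37, 1.44 and 1.14 at 0 h and 2.67, 2.76, 2.25 and 2.12 at 4 h, again without overlap. That gain was 1.07 ± 0.21, or 2.1-fold (adjusted p = 0.000338). A dimmer Hist1h1d probe was not called in either genotype, with differences of 0.14 and 0.64.

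Hist1h1b, a linker histone of dividing cells, fell. In P72 it went from 4.19, 4.05, 4.58 and 3.69 at 0 h to 2.96, 2.80, 3.20 and 2.81 at 4 h, a drop in all 4 arrays below the lowest untreated one. The difference was -1.19 ± 0.34 log2, 2.28-fold lower (adjusted p = 0.00538). In R72 it went from 3.52, 3.89, 4.25 and 3.78 to 2.91, 2.55, 2.12 and 1.75, and the groups did not overlap. The difference there was -1.53 ± 0.34, 2.88-fold lower (adjusted p = 0.00109). Thus, in both genotypes, 2 linker genes of the same cluster moved in opposite directions.

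The remaining linker genes moved less. Hist1h1c, which is also expressed in resting cells, was 0.51 ± 0.10 log2 higher in P72 (adjusted p = 0.000193) and 0.56 ± 0.10 higher in R72 (adjusted p = 0.000144), but under median centring the values were -0.10 and 0.08 and neither was called higher. Hist1h1a was 0.62 ± 0.17 higher in P72 (adjusted p = 0.00428) and 0.12 in R72, where it was not called, and the P72 value was 0.01 and not called under median centring. Hist1h1e, with -0.12 and -0.46, was not called at 4 h in either genotype. Hist1h1t, the testis-specific linker histone, was well above background on 8 of 32 arrays and was not called at any time.

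H2A forms the outer faces of the nucleosome together with H2B. Hist1h2ai fell from 5.09, 5.06, 5.57 and 5.59 in untreated P72 arrays to 3.64, 3.86, 4.38 and 4.28 at 4 h. In R72 it fell from 5.01, 5.39, 5.39 and 5.30 to 4.24, 4.16, 3.94 and 3.94. All irradiated arrays at 4 h were below all untreated arrays of their genotype. The differences were -1.29 ± 0.17 log2 in P72 (2.44-fold lower, adjusted p = 4.31e-06) and -1.20 ± 0.17 in R72 (2.3-fold lower, adjusted p = 1.86e-05).

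Its near-identical partner Hist1h2ak gave -1.19 in P72 and -1.13 in R72. Hist1h2ab was -0.92 ± 0.31 in P72 (adjusted p = 0.0151) and -1.06 ± 0.31 in R72 (adjusted p = 0.00843). Hist2h2ac was -0.70 ± 0.14 in P72 (adjusted p = 0.000263) and -0.72 ± 0.14 in R72 (adjusted p = 0.000326). Its probe (chr3:96119778-96119837, mm7) lies near that of Hist2h2aa1 (chr3:96119529-96119588) on the same strand. The array annotation lists 4 RefSeq genes for it, Hist2h2aa1 (H2ac18) among them, so it cannot be read as Hist2h2ac alone. All of these H2A genes were called lower in both genotypes. Hist1h2aa was not called at 4 h, with an adjusted p of 0.0711 for a difference of -0.40 in R72. Hist1h2af and Hist2h2aa1 were not called at 4 h either.

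**Figure D2:**
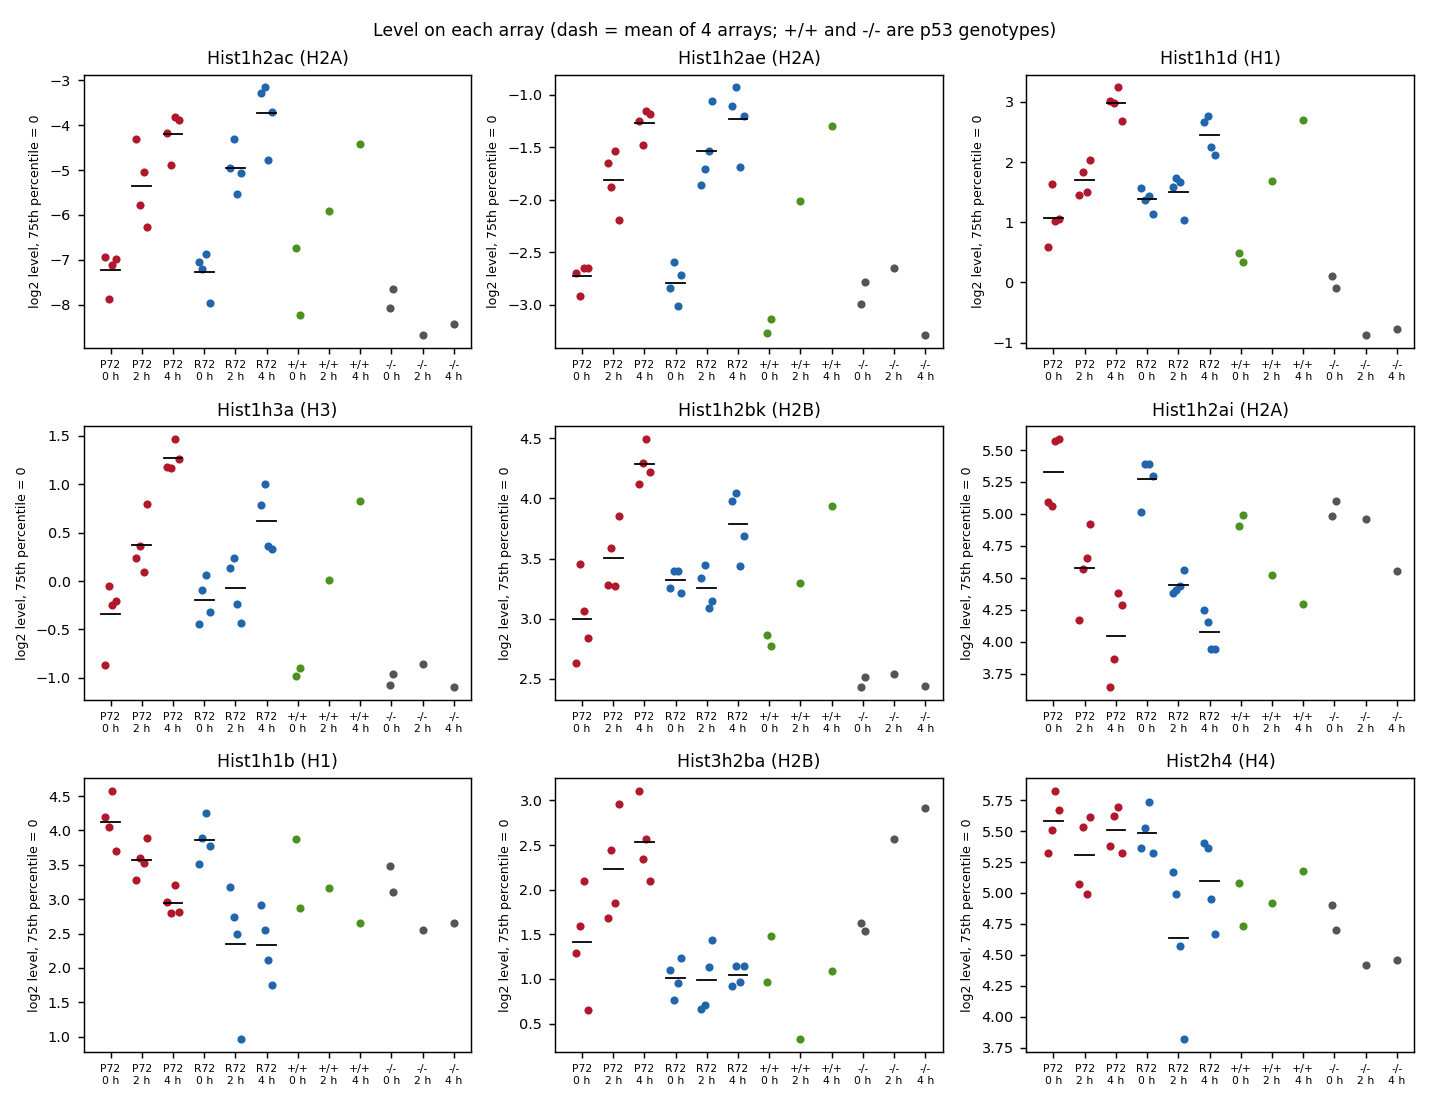
Level of selected members on each array (log2 signal relative to the array's 75th percentile) at 0 h, 2 h and 4 h in P72, R72, p53+/+ and p53-/-; each point is an array. Hist1h1d and Hist1h2ae climb with time in P72, R72 and p53+/+, while the p53-/- arrays at 4 h lie below their untreated ones.

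Hist1h2ae went against the other H2A genes. It stood at -2.70, -2.92, -2.65 and -2.65 in untreated P72 arrays, at -1.65, -1.88, -1.54 and -2.19 at 2 h, and at -1.25, -1.48, -1.15 and -1.19 at 4 h. In R72 it went from -2.85, -2.60, -3.01 and -2.72 through -1.86, -1.70, -1.54 and -1.06 to -1.10, -0.92, -1.69 and -1.20. No irradiated array, at 2 h or 4 h, overlapped the untreated arrays of its genotype. The differences at 4 h were 1.46 ± 0.17 log2 in P72 (2.76-fold, adjusted p = 1.27e-06) and 1.56 ± 0.17 in R72 (2.96-fold, adjusted p = 1.23e-06). This is the probe whose sequence lies mostly past the stem-loop.

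Hist1h2ac, another H2A gene, was not well above background on any untreated array. At 4 h it was well above background on 3 of 4 P72 arrays and 4 of 4 R72 arrays, which gives only a lower bound on its change. Against the dimmest signal that counts as above background, it was at least 2.72-fold higher in P72 (limma adjusted p = 4.97e-06) and at least 3.88-fold higher in R72 (adjusted p = 1.8e-06). In the authors' value table the same probe differed by only 0.38 log2 in P72 and 0.76 in R72.

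Hist3h2a shows that probes of the same gene can disagree. Its reported probe fell from 6.91, 6.47, 6.35 and 6.52 at 0 h to 5.48, 5.99, 5.16 and 4.81 at 4 h in P72, without overlap, a difference of -1.20 ± 0.30 (adjusted p = 0.00211). A second probe gave -1.10 ± 0.27 in P72 and -1.03 ± 0.27 in R72. It is given on the minus strand, whereas the other probes of this gene are on the plus strand. The array annotation lists no RefSeq gene for it. The third probe, at chr11:59036997-59037056 (mm7), rose by 0.43 ± 0.13 in P72 (adjusted p = 0.00824 over all probes) and by 0.34 ± 0.13 in R72 (adjusted p = 0.0423). Over all probes tested singly, 53.4% were called in P72 and 40.8% in R72. These probe tests were run under the main scaling alone. Median centring shifts all probes of an array alike. It turned larger rises negative: Hist1h1c in P72 (0.51 to -0.10) and Hist1h2bk in R72 (0.47 to -0.0037). The rise of the third Hist3h2a probe therefore depends on the scaling. Hist1h2af also had discordant probes: the reported one gave -0.22 in P72, and the other, which shares 40 of 40 aligned bases with the Hist1h2ak probe, gave -1.30 ± 0.17 (adjusted p = 3.2e-06).

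**Figure D3:**
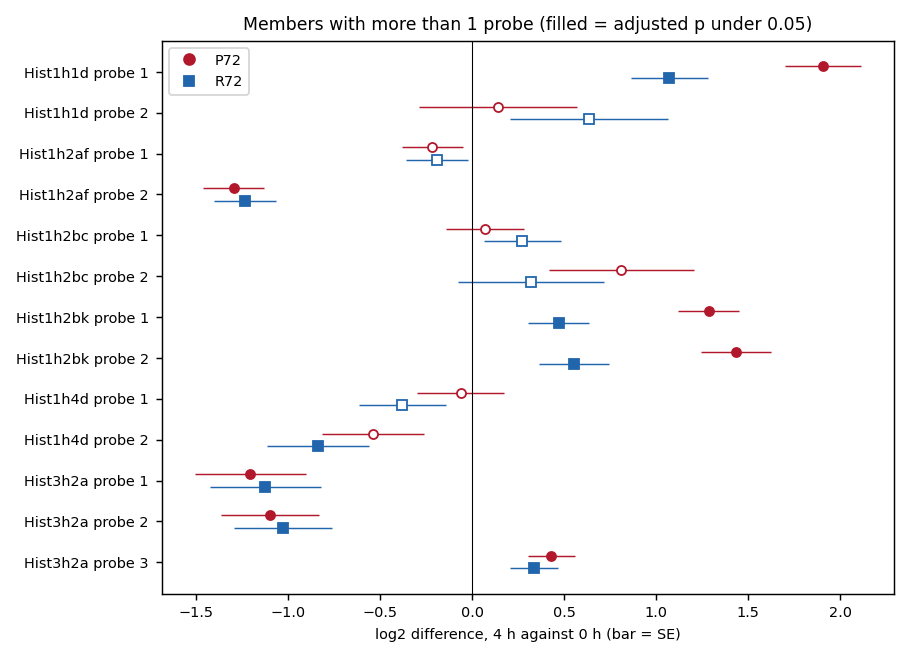
Log2 difference at 4 h against 0 h for each probe of the members with more than 1 tested probe, in P72 and R72; bars are SE and filled points have an adjusted p under 0.05. Under the main scaling the third Hist3h2a probe lies to the right of 0 and the others to the left.

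H2B pairs with H2A, and 6 of its 7 tested genes were higher in P72. Hist1h2bk stood at 2.63, 3.45, 3.06 and 2.84 at 0 h, 3.28, 3.59, 3.27 and 3.85 at 2 h, and 4.12, 4.30, 4.50 and 4.22 at 4 h. The 4 h arrays were above all others. The gain at 4 h was 1.29 ± 0.17 log2, or 2.44-fold (adjusted p = 2.95e-06). In R72 it went from 3.26, 3.40, 3.40 and 3.22 to 3.98, 4.04, 3.44 and 3.69, and each 4 h array was still above each untreated one. The R72 gain was 0.47 ± 0.17, or 1.39-fold (adjusted p = 0.0257), and it was -0.0037 under median centring.

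Hist1h2bm and Hist3h2bb, whose probes nearly match that of Hist1h2bk, gave 1.32 and 1.36 in P72 and 0.48 and 0.51 in R72. The RefSeq symbol of Hist3h2bb is H2bu1-ps, a pseudogene name. The array annotation lists H2bu2, the symbol of Hist3h2ba, for the Hist3h2bb probe, so which gene its signal reports is not known. Hist1h2ba, a testis-type H2B, gave 1.41 ± 0.18 in P72 (adjusted p = 3.61e-06) and 0.51 ± 0.18 in R72 (adjusted p = 0.0296). Over the 24 P72 and R72 arrays the level of Hist1h2bk correlated with that of Hist1h2bm at r = 0.999 and with Hist1h2ba at r = 0.992. These are descriptions over arrays that share their scaling, and the Hist1h2bk and Hist1h2bm probes nearly match in sequence. Hist2h2be was 0.37 ± 0.16 higher in P72 (adjusted p = 0.05 after rounding, below the threshold) and -0.24 under median centring. Hist1h2bc was not called in P72 or R72 at either time.

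H3 and H4 form the inner tetramer of the nucleosome. Hist1h3a stood at -0.87, -0.05, -0.25 and -0.20 in untreated P72 arrays and at 1.17, 1.17, 1.47 and 1.26 at 4 h. In R72 it went from -0.44, -0.09, 0.06 and -0.32 to 0.79, 1.01, 0.36 and 0.33. The groups were apart in both genotypes. The gain was 1.61 ± 0.20 log2 in P72 (3.06-fold, adjusted p = 1.88e-06) and 0.82 ± 0.20 in R72 (1.76-fold, adjusted p = 0.00234).

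Hist1h3d and Hist2h3c1 were 0.34 ± 0.10 and 0.33 ± 0.09 higher in P72 (adjusted p = 0.00811 and 0.00302), but -0.27 and -0.28 under median centring. Of the H4 genes, Hist1h4i was the one called at 4 h. It went from 2.12, 2.70, 2.82 and 2.47 to 1.65, 1.36, 1.55 and 1.78 in P72, below every untreated array. The difference was -0.94 ± 0.17 in P72 (adjusted p = 9.53e-05) and -0.65 ± 0.17 in R72 (adjusted p = 0.00355). Hist1h4f, also an H4 gene, stood between 6.47 and 7.15 at 0 h and between 6.62 and 7.04 at 4 h in P72.

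In R72 thymocytes at 4 h, 9 members were called higher and 7 lower, with 44.9% of all genes called, 30% higher and 14.8% lower. The 7 that fell had also fallen in P72: Hist1h1b, Hist1h2ab, Hist1h2ai, Hist1h2ak, Hist1h4i, Hist2h2ac and Hist3h2a. The H2B count was 4 of 7 higher and 0 lower, and the H2A count 2 of 10 higher and 5 lower. The median member difference was -0.08, against 0.12 over all genes. Median centring moved the all-gene median to -0.36 and the member calls to 3 higher and 17 lower, with the share of called genes that were higher going from 66.9 to 27.1%. The risers called under all 3 other scalings were Hist1h1d, Hist1h2ac and Hist1h2ae. With normexp background correction 9 members were called, 3 higher and 6 lower.

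At 2 h members moved both ways in P72 and mostly downward in R72. These comparisons share their untreated arrays with those at 4 h. In P72, 7 members were called higher and 3 lower, with 14.7% of all genes called, 10% higher and 4.66% lower. Median centring turned that balance to 3 higher and 6 lower, and the share of called genes that were higher, over all genes, from 68.3 to 31.5%. With slide as a block 3 were higher and 4 lower. The risers were Hist1h1d, Hist1h2ac, Hist1h2ae, Hist1h2bk, Hist1h2bm, Hist3h2bb and Hist1h3a, and the fallers were Hist1h2ai, Hist1h2ak and Hist1h4i. Hist1h2ae gave 0.92 ± 0.17 log2 (adjusted p = 0.00128) and Hist1h2ai gave -0.75 ± 0.17 (adjusted p = 0.00569). The count was 6 without untreated replicate 1, without untreated replicate 4 or without 2 h replicate 2. Within the first scan day 1 member was called, and within the later scan days 2.

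In R72 at 2 h, 2 members were called higher, Hist1h2ac and Hist1h2ae, and 14 lower, with 13% of all genes called, 6.49% in each direction. Median centring gave 2 higher and 17 lower, and took the share of called genes that were higher from 50 to 26.6%. The fall covered all 6 H4 genes, 6 of 10 H2A genes and 2 of 6 H1 genes, while no H2B or H3 gene was called. The H4 calls are not independent. A Hist1h4d probe matches the Hist1h4f probe at 50 of 50 aligned bases, and the Hist1h4f and Hist2h4 probes match at 45 of 49. Over the P72 and R72 arrays the levels of Hist1h4d and Hist1h4f correlated at r = 0.997. The median member difference was -0.45, against 0.04 over all genes. Hist1h1b stood at 3.17, 2.74, 2.50 and 0.96, with replicate 4 far below the others, and its difference was -1.51 ± 0.34 (adjusted p = 0.0056). Hist2h4 was at 5.17, 4.99, 4.57 and 3.82, against 5.36, 5.53, 5.73 and 5.33 at 0 h, a difference of -0.85 ± 0.23 (adjusted p = 0.0211).

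Replicate 4 at 2 h had the highest 75th percentile of all arrays, 1017 intensity units, with 71.2% of probes well above background. Without it, 9 members were called, 2 higher and 7 lower. Hist1h1b remained lower at -1.05 ± 0.25 (adjusted p = 0.00927) and Hist1h2ab at -1.02 (adjusted p = 0.0143). The H4 genes Hist1h4a, Hist1h4d, Hist1h4f, Hist2h4 and Hist4h4 were no longer called, with adjusted p-values from 0.0613 to 0.153, and Hist1h4i was (-0.60, adjusted p = 0.0345). Leaving out untreated replicate 3 gave 8 calls and leaving out untreated replicate 2 gave 10. Within the first scan day 1 member was called, and within the later days 9.

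Between 2 h and 4 h, the balance of calls depended on the scaling. In P72, 13 were called higher and 2 lower, with 32.4% of all genes called, 22.6% higher and 9.81% lower, and median centring gave 6 higher and 8 lower. In R72, 9 were called higher and none lower, with 21.4% of all genes called, 17% higher and 4.45% lower. The P72 count was 9 without 2 h replicate 2 or without 4 h replicate 3. The R72 count was 2 without 4 h replicate 2 and 3 without 4 h replicate 1, 2 h replicate 3 or 2 h replicate 4, and median centring gave 1 higher and 4 lower.

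The P72 and R72 genotypes were then compared directly at each time. Slides 1 and 3 held P72 arrays alone, slides 5 and 6 R72 arrays alone, and slides 2 and 4 both. Scan day 3 held R72 arrays alone, so genotype is partly confounded with slide and scan day. For untreated cells 0 members and 0.902% of all genes were called by limma. At an unadjusted p under 0.05 there was 1 member, and the share of all genes at that level was not counted. Hist3h2ba, an H2B gene on chromosome 11, was the member called at 2 h, when 1.29% of all genes were called, 0.672% higher in P72, and it was called again at 4 h. Its P72 levels were 1.29, 1.60, 2.10 and 0.65 at 0 h, 1.68, 2.44, 1.85 and 2.96 at 2 h, and 3.11, 2.35, 2.57 and 2.09 at 4 h. Its R72 levels were 1.11, 0.76, 0.95 and 1.24, then 0.66, 0.71, 1.13 and 1.43, then 0.92, 1.15, 0.97 and 1.15. After irradiation the P72 arrays all lay above the R72 arrays.

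P72 exceeded R72 by 0.39 ± 0.29 log2 at 0 h (adjusted p = 0.817), by 1.25 ± 0.29 at 2 h (2.38-fold, adjusted p = 0.0331) and by 1.48 ± 0.29 at 4 h (2.8-fold, adjusted p = 0.0123). At 4 h the Hist3h2ba difference was 1.70 within the first scan day and 1.27 within the later days, and with slide as a block it was 1.64 ± 0.47 (adjusted p = 0.263), no longer called. The call at 2 h was lost without P72 replicate 2, P72 replicate 4, R72 replicate 2 or R72 replicate 3, and under median centring. Hist1h1c was the other member called at 4 h, lower in P72 by 0.43 ± 0.10 (adjusted p = 0.0328), when 1.27% of all genes were called, 0.702% higher in P72 and 0.571% lower. Median centring kept both calls and took the share of called genes that were higher in P72 from 55.1 to 19.6%. Hist1h1c was at -0.38 ± 0.10 already at 0 h (adjusted p = 0.0752), and with slide as a block it too lost its call at 4 h. One of the calls at 4 h was lost on leaving out any array of that time other than P72 replicate 3 and R72 replicate 2.

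Whether the response to radiation differed between P72 and R72 was tested as the difference of the differences. At 4 h 0 members and 0% of all genes were called by limma, with 7 members at an unadjusted p under 0.05. At 2 h 0 members and 0.00501% of all genes were called, with 6 members at an unadjusted p under 0.05. The share of all genes at the unadjusted level was not counted, so these 7 and 6 cannot be set against it. The rise of Hist1h2bm at 4 h was larger in P72 by 0.84 log2, with a 95% interval of 0.39 to 1.30 (adjusted p = 0.605). For Hist3h2bb it was larger by 0.86, with an interval of 0.41 to 1.30, and for Hist1h1d by 0.83, with an interval of 0.26 to 1.41 (adjusted p = 0.752). These differences did not pass the threshold over all genes, and the intervals are not adjusted.

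The p53+/+ and p53-/- arrays addressed whether the response depended on p53. With the 2 h and 4 h arrays averaged as irradiated, p53+/+ thymocytes had 10 members called higher and 1 lower, with 23.6% of all genes called, 13.7% higher and 9.91% lower. Median centring gave 4 higher and 4 lower, with the share of called genes that were higher going from 58 to 18%, and 4 of the 11 calls, 3 higher and 1 lower, held under all 3 other scalings. In p53-/- 0 members were called, and 1.1% of all genes were called, 0.777% higher and 0.321% lower. At an unadjusted p under 0.05 there were 6 members, and the share of all genes at that level was not counted. The 10 risers were Hist1h1a, Hist1h1d, Hist1h2ac, Hist1h2ae, Hist1h3a and 5 of 7 H2B genes, and the faller was Hist1h4i. Hist1h1a and all 5 H2B genes lost their call under median centring. Each irradiated time had 1 array, and the fit takes such an array to vary as the other groups do.

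Hist1h1d was at 0.49 and 0.34 in untreated p53+/+, 1.69 at 2 h and 2.69 at 4 h. In p53-/- it was at -0.10 and 0.11, then -0.88 and -0.77. It went up in one genotype, whereas both irradiated p53-/- arrays lay below the untreated ones. The response was 1.77 ± 0.28 log2 in p53+/+ (adjusted p = 0.000122) and -0.83 ± 0.28 in p53-/- (adjusted p = 0.176), and the difference of responses was 2.61 ± 0.40 (6.09-fold, adjusted p = 0.000255).

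Hist1h2ae was at -3.27 and -3.13 in untreated p53+/+, -2.01 at 2 h and -1.30 at 4 h, and at -2.78, -2.99, -2.65 and -3.29 in p53-/- in the same order. The p53-/- arrays overlapped, and the p53+/+ arrays did not. The responses were 1.55 ± 0.24 and -0.08 ± 0.24, and their difference was 1.63 ± 0.34 (3.09-fold, adjusted p = 0.00544). The other members that differed in response were Hist1h1a by 1.37 ± 0.37 (adjusted p = 0.0315) and Hist1h3a by 1.32 ± 0.38 (adjusted p = 0.0447). Hist1h2ac was called too (adjusted p = 0.0408), but it was not well above background on the p53-/- or untreated arrays, so that no size is given, and it was not called in the authors' value table. That makes 5 of 32 members, all higher in p53+/+, with 5.38% of all genes called, 3.19% higher and 2.2% lower. Median centring gave 3 higher and 1 lower, with the share of called genes that were higher going from 59.2 to 18.7%. Under all 3 other scalings Hist1h1d and Hist1h2ae were the members that kept this call.

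Of the H2B genes, Hist1h2ba, Hist1h2bk, Hist1h2bm, Hist2h2be and Hist3h2bb were called higher in p53+/+. Hist1h2bc (-0.34 and -0.10 untreated, -0.89 at 2 h, -0.55 at 4 h) and Hist3h2ba (0.97 and 1.48, then 0.33 and 1.09) were not called. Hist1h2bk was at 2.86 and 2.78 untreated, 3.30 at 2 h and 3.94 at 4 h, and at 2.52, 2.43, 2.54 and 2.44 in p53-/-. The response was 0.80 ± 0.22 in p53+/+ (adjusted p = 0.0131), or 0.41 and not called under median centring, and 0.01 ± 0.22 in p53-/-. The difference of 0.79 ± 0.32 did not pass the threshold (adjusted p = 0.148). The falls were less clear: Hist1h2ai changed by -0.54 ± 0.23 in p53+/+ (adjusted p = 0.0911) and -0.28 in p53-/-, and Hist1h4i by -0.73 ± 0.23 (adjusted p = 0.0238) and -0.46 ± 0.23 (adjusted p = 0.417). The difference of the Hist1h4i responses was -0.27 (adjusted p = 0.641).

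**Figure D4:**
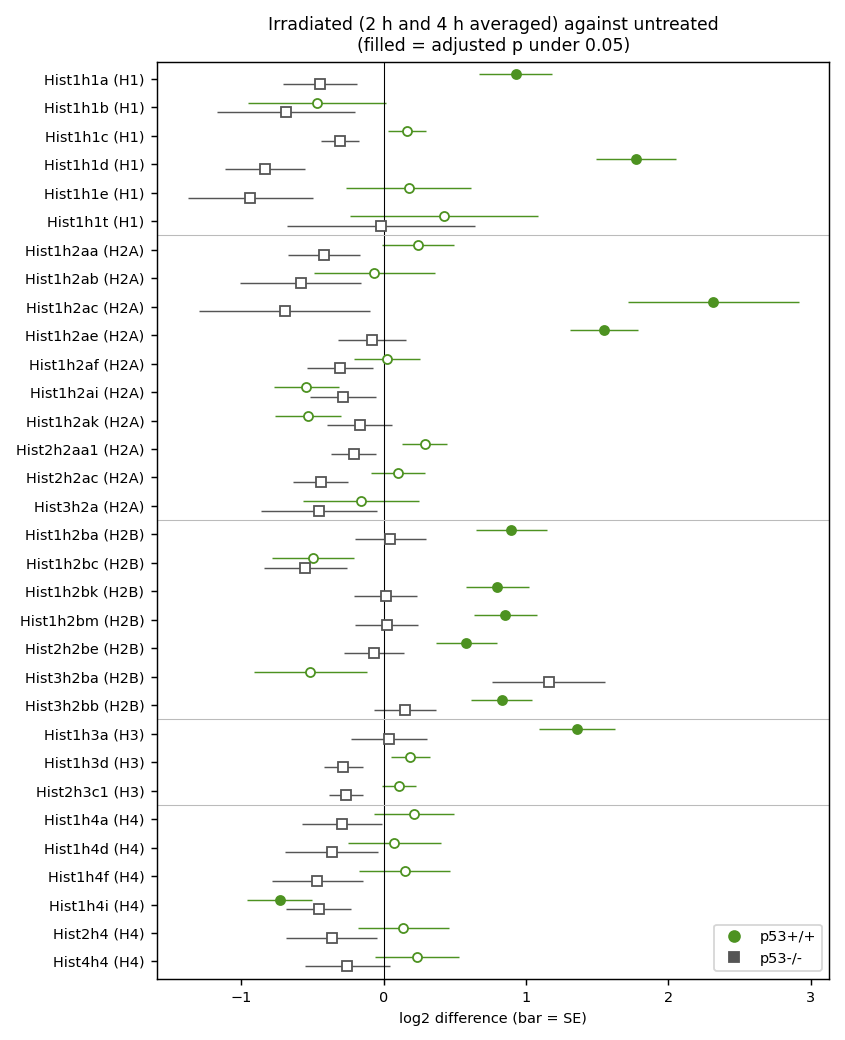
Log2 difference of irradiated against untreated thymocytes for each tested member in p53+/+ and p53-/-, with 2 h and 4 h averaged; bars are SE and filled points have an adjusted p under 0.05. Hist1h1d, Hist1h2ae and Hist1h3a lie right of 0 in p53+/+, with p53-/- at or left of 0 apart from 0.04 for Hist1h3a, while the Hist1h2ac points are fitted values of a probe mostly not above background.

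Irradiated p53+/+ cells, set against irradiated p53-/- cells, had 11 members higher and 2 lower, with 22% of all genes called, 13.6% higher and 8.45% lower. Median centring gave 9 higher and 4 lower, with the share of called genes that were higher going from 61.6 to 21%. Untreated, 0 members were called by limma, and 0.712% of all genes were called, 0.346% higher and 0.366% lower. At an unadjusted p under 0.05 there were 3 members, and the share of all genes at that level was not counted. Hist1h1d was 3.02 ± 0.28 log2 higher (8.09-fold, adjusted p = 8.55e-08) and Hist1h1a 1.45 ± 0.26 higher (2.74-fold, adjusted p = 0.000545). The 2 lower members were Hist1h4i, at -0.83 ± 0.23 (adjusted p = 0.013), and Hist3h2ba, at -2.03 ± 0.40 (4.09-fold, adjusted p = 0.00127). Hist3h2ba was at 0.33 and 1.09 in the irradiated p53+/+ arrays and at 2.56 and 2.92 in the irradiated p53-/- arrays, but its response in p53-/-, 1.16 ± 0.40, was not called (adjusted p = 0.179).

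These counts rested on few arrays. Both irradiated p53+/+ arrays were on slide 7 and both irradiated p53-/- arrays on slide 8. From the irradiated arrays alone, genotype and slide therefore cannot be told apart. The untreated arrays of each genotype were split over both slides, so a slide term could be fitted from them. With slide as a block fewer members were called between irradiated genotypes, and that count is given in the closing section. Without the p53+/+ 4 h array, 2 members were called in p53+/+, 1 in the difference of responses and 3 between irradiated genotypes. Without untreated p53+/+ replicate 2, 3 were called in p53+/+ and 2 in the difference. The difference gave 8 calls without the p53+/+ 2 h array and 2 without either untreated p53-/- array or the p53-/- 2 h array.

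Among genes that act on histones, Slbp fell and Zfp473 rose in both P72 and R72, and Npat was not called. Slbp, the stem-loop binding protein, was at 4.41 ± 0.12 (SD, n = 4) in untreated P72 and 3.48 ± 0.16 at 4 h, a difference of -0.93 ± 0.12 (SE, adjusted p = 1.95e-06). In R72 it went from 4.40 ± 0.16 to 3.59 ± 0.06 (adjusted p = 1.74e-05). In p53-/- it was at 4.34 untreated, 4.89 at 2 h and 4.63 at 4 h, which was not called (adjusted p = 0.228). Zfp473, a zinc finger protein of the histone pre-mRNA processing complex, rose by 2.63 ± 0.38 log2 in P72 (6.19-fold, adjusted p = 1.13e-05) and by 2.50 ± 0.38 in R72 (5.67-fold, adjusted p = 3.73e-05). Npat, the histone gene coactivator, was not called, at -0.15 and -0.26. Over the whole list of histone mRNA synthesis, processing and decay, 2 of 20 tested genes were higher and 13 lower in P72, with a median of -0.46, and 2 and 11 in R72.

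Histone chaperones and assembly factors had 0 of 21 higher and 16 lower in P72 and 14 lower in R72, with medians of -0.61 and -0.44. Nasp, which carries H1 and H3-H4, gave -1.07 and -0.81, and Chaf1a, a chromatin assembly factor subunit, gave -1.02 and -0.98. The DNA replication list had 0 of 23 higher and 22 lower in each genotype. Pcna, the sliding clamp, went from 6.58 to 5.41 in P72, and was at 6.47 untreated, 7.28 at 2 h and 6.72 at 4 h in p53-/-. Mcm2, a subunit of the replicative helicase, gave -1.32 in P72 and -1.17 in R72. In the same comparisons 14 cluster members were higher and 7 lower in P72, and 9 were higher and 7 lower in R72. Over all genes, 37.1% were called higher and 19.6% lower in P72, and 30% and 14.8% in R72. As given above, median centring left more members lower than higher in both genotypes.

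The replacement histones, which lie outside the clusters and are made throughout the cell cycle, had 3 of 13 higher and 3 lower in P72 and 3 and 2 in R72. H2afz was -0.62 ± 0.11 in P72 (adjusted p = 0.000118) and -0.45 in R72 (adjusted p = 0.00278). H2afx, the variant phosphorylated at DNA breaks, was -0.46 ± 0.12 in P72 (adjusted p = 0.00321) and -0.24 in R72 (adjusted p = 0.117). H2afy3 rose from -2.66 ± 0.31 to -0.28 ± 0.14 in P72 (5.22-fold) and from -2.47 ± 0.19 to -0.49 ± 0.18 in R72 (3.93-fold). H3f3b was 0.25 ± 0.09 in P72 (adjusted p = 0.0261), and H1f0 was not called at 4 h in either genotype. The replacement histone counts were made under the main scaling alone. The H3f3b rise was smaller than those of Hist1h3d (0.34) and Hist2h3c1 (0.33), which median centring turned negative. It therefore depends on the scaling.

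Markers of some other cells also moved. At 4 h 10 of 10 tested neutrophil markers were higher in P72 and 2 of 10 in R72, and their summed level, in units of the array's 75th percentile, lay between 35.6 and 63.5 at 0 h and between 72.6 and 151 at 4 h in P72. In R72 that sum lay between 69.2 and 88.8 at 0 h and between 69.1 and 142 at 4 h. Thymic epithelial markers were higher for 7 of 9 in P72 and 4 of 9 in R72, and their sum lay between 11.5 and 27.1 at 0 h and between 52.6 and 76 at 4 h in P72. In R72 it lay between 31.2 and 39.7 at 0 h and between 55.7 and 81.1 at 4 h. The summed B cell and erythroid markers overlapped between 0 h and 4 h in both genotypes. The B cell sum lay between 6.83 and 10.7, then 8.72 and 10.3 in P72, and between 6.08 and 8.18, then 6.49 and 7.38 in R72. The erythroid sum lay between 156 and 294, then 112 and 280 in P72, and between 127 and 257, then 98.3 and 225 in R72. Macrophage markers were higher for 5 of 9 in P72 and 3 of 9 in R72. Over all genes 37.1% were called higher in P72 and 30% in R72. The R72 neutrophil and macrophage counts were thus below or near that share. These marker counts were made under the main scaling alone. In p53+/+ the summed neutrophil markers were at 29.8 and 30.6 untreated, 43.1 at 2 h and 91.5 at 4 h, and 6 of 10 were called higher. In p53-/- they were at 39.8 untreated, 42.1 at 2 h and 49.4 at 4 h, with 0 of 10 called. The summed thymic epithelial markers went from 29.1 and 29.7 to 29.4 at 2 h and 54.1 at 4 h in p53+/+, and from 34.5 and 34.7 to 26.4 and 19.8 in p53-/-. The summed erythroid markers went from 411 and 427 to 307 and 65.5 in p53+/+, and from 455 and 475 to 254 and 247 in p53-/-. The shares of all genes called in p53+/+ and p53-/- are given above with the member counts. The part of these cells in the histone results was not tested.

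In the stretches of chromosome 13 picked for display, the changes of neighbours did not all run together. Within 23.9 kb (chr13:23105951-23129880, mm7) lie the probes of 5 members, of which Hist1h1c, Hist1h3a and Hist1h1a were higher at 4 h in P72, Hist1h2ab was lower and Hist1h4a was not called. Under median centring Hist1h1c (-0.10) and Hist1h1a (0.01) were not called. In another stretch of 64.9 kb, Hist1h2bm was higher and Hist1h2ak, Hist1h1b and Hist1h2ai were lower. The array annotation lists 4 RefSeq genes each for the Hist1h2bm and Hist1h2ai probes, so their signal cannot be placed in that stretch alone. The median GC content of the reported probes was 53.35% for the members higher in P72 at 4 h, 50% for those lower and 60% for those not called.

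Promoter sequences of 29 members were matched in RefSeq (GRCm38.p6), 30 promoters in all, each 250 bases before to 50 after the start. Motifs were searched on both strands. TATAAA was found in 63.3% of member promoters, against 13.6% of 32851 promoters of the same length, and CCAAT in 90% against 37.4%. ATTTGCAT, the octamer bound by Oct1, was found in 33.3% against 1.74%, in 6 of 11 H2A and 4 of 6 H2B promoters and in none of H1, H3 or H4. AAACACA, an element known from H1 promoters, was found in 30% against 7.18%, and in 5 of 6 H1 promoters. The promoters below pair a riser with a faller of the same class, with the motifs of either strand in capitals.

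Hist1h1d: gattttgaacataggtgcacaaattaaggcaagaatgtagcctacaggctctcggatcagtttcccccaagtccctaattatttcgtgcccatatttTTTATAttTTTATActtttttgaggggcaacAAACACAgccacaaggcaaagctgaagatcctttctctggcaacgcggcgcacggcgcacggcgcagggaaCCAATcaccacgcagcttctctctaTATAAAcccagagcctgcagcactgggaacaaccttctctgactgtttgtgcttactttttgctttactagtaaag

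Hist1h1b: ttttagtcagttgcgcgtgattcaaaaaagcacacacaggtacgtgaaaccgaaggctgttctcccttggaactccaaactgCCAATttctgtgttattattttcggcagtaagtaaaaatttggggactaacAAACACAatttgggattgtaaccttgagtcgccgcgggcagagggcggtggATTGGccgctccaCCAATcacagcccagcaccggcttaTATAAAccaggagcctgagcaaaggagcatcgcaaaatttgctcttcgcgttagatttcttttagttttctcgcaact

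Hist1h2ae: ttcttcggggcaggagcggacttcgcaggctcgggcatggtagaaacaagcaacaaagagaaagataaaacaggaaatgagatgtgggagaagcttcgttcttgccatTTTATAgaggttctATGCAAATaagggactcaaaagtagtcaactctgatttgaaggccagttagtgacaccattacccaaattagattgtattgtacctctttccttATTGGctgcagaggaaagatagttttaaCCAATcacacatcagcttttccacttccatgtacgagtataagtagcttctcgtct

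Hist1h2ab: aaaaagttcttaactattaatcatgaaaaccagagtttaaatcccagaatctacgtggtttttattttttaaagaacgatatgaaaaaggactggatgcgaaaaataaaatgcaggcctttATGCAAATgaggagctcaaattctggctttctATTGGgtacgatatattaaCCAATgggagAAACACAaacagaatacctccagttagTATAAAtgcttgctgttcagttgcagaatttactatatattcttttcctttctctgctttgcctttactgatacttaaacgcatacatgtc

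All 4 hold TATAAA and CCAAT, and both H2A promoters hold ATTTGCAT. Hist1h1d (chr13:23554782-23555081, + strand) rose and Hist1h1b (chr13:21780576-21780875, - strand) fell. Hist1h2ae (chr13:23571171-23571470, - strand) rose and Hist1h2ab (chr13:23750838-23751137, + strand) fell.

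Over the 24 P72 and R72 arrays, the non-members closest to the members' mean level were Coro1a (Pearson r = 0.905), Irx4 (0.864), Rnu33 (0.862), Rps27 (0.862) and Ticam1 (0.858), given as a description over arrays that share depth and scaling. Members did not form a single block, with r = 0.945 between Hist1h1d and Hist1h3a, 0.937 between Hist1h1b and Hist1h2ab, and -0.751 between Hist1h2ab and Hist1h2ae.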

How the data were processed

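Deposited single-colour Agilent scanner output gave spot intensity values (gProcessedSignal, background-subtracted by Feature Extraction, version 9.5.3.1 per the file headers). The authors' value table holds log2 values of the same 41174 probes. Its columns correlate with the processed signal at 0.948 or more and have medians of 6.20 to 6.23, and its scale matches log2, while its normalization and centring are not given in the sources used here. Control spots (1639 of 43379) and outlier-flagged values (0.223%) were left out.

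Each array's 75th percentile of log2 signal was subtracted. A gene was represented by its probe with the highest mean level and kept when that probe was well above background on at least 4 arrays. Group means were fitted with limma 3.58.1 in R 4.3.3 over 24 P72 and R72 arrays, and over all 32 arrays for p53+/+ against p53-/-, with Benjamini-Hochberg adjustment over 19954 genes (19946 to 19954 in the p53 comparisons). The number of arrays limits the precision. Probe coordinates are in mm7 per the file headers. Named genes were up to 8 members with the smallest p in each direction and comparison, the member with the highest mean of each class, members with opposed probes, listed regulators and the leading genes of each list. Members and lists were chosen with earlier results of these data known. The test was tried on simulated data. Alternatives were other background corrections, scalings, filters, probe summaries, blocks (slide, scan day, replicate number) and arrays left out.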

Additional observations from a re-analysis of the deposited data

Results flagged for a closer look

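Among 192 groups of 4 arrays, 5 held an array far from the others, where chance alone picks out about 1 in 20 groups. Hist1h1a was at 0.08 on R72 2 h replicate 4, with the nearest array at 0.58, and Hist1h2aa was at 7.8 on the same array, with the nearest at 8.32. Hist1h1e was at 3.09 on P72 4 h replicate 4 (nearest 3.42), Hist1h2ak at 5.91 on R72 0 h replicate 1 (nearest 6.25) and Hist2h2be at 3.12 on P72 2 h replicate 2 (nearest 2.66).

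The response to radiation differed between p53+/+ and p53-/- by the limma test of the difference for 5 members: 1.37 log2 for Hist1h1a, 2.61 for Hist1h1d, 3.01 for Hist1h2ac, 1.63 for Hist1h2ae and 1.32 for Hist1h3a. The value for Hist1h2ac is a fitted one with no measured size behind it, since the probe was not well above background on the p53-/- or untreated arrays.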

How the results depend on the processing

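Counts of members called are given here where an alternative moved them by more than 1.5 times. Normexp background correction with an offset of 50 gave 1 call for P72 at 2 h, 7 for P72 between 2 h and 4 h, 1 for R72 at 2 h, 9 for R72 at 4 h, 0 for R72 between 2 h and 4 h, 7 for irradiated p53+/+, 2 for the difference of p53+/+ and p53-/- responses, and 0 for P72 against R72 at 2 h and at 4 h. It also turned Hist1h2ac in R72 at 2 h to -0.65. The cause was not tested. Quantile normalization gave 9 for R72 at 2 h. Median centring gave 5 for R72 between 2 h and 4 h and 0 for P72 against R72 at 2 h. It turned Hist1h1c (-0.10), Hist1h3d (-0.27), Hist2h2be (-0.24) and Hist2h3c1 (-0.28) at 4 h in P72, Hist1h1c (-0.079), Hist1h3d (-0.14), Hist2h2aa1 (-0.0777) and Hist2h3c1 (-0.16) between 2 h and 4 h in P72, and Hist1h2bk (-0.0037) in R72 at 4 h.

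The authors' table gave 4 for P72 against R72 at 4 h and 8 for the difference of p53 responses. Without a filter the counts were 0 and 1 for P72 against R72 at 2 h and 4 h and 2 for the difference of p53 responses, and with the strictest filter 2 for P72 against R72 at 2 h. Averaging the probes of a gene gave 1 for irradiated p53-/-. Slide as a block gave 15 for R72 between 2 h and 4 h, 0 for P72 against R72 at 2 h and at 4 h, 2 for the difference of p53 responses and 7 between irradiated p53 genotypes. Chosen after seeing the data, scan day as a block gave 16 for R72 between 2 h and 4 h and 1 for P72 against R72 at 4 h. The first scan day alone, with fewer arrays, gave 1 (P72 2 h), 2 (P72 4 h against 2 h), 1 (R72 2 h), 0 (R72 4 h against 2 h) and 0 for P72 against R72 at 2 h and 4 h. The later days alone gave 2, 8, 9, 3, 0 and 0 in the same order. Without both R72 replicates 4 after irradiation the counts were 10 (R72 2 h), 3 (R72 4 h against 2 h) and 1 (P72 against R72, 4 h).

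Replicate numbers were not taken to pair the samples: deviations correlated above 0.1 in 34 of 60 same-numbered pairs of arrays (lowest -0.28, median 0.13), against a median of -0.03 over 180 differently numbered pairs. With the replicate block, 2 members were called for P72 against R72 at 2 h, 21 for P72 and 17 for R72 at 4 h. Leaving out an array at a time gave 6 to 12 (P72 2 h), 20 to 21 (P72 4 h), 9 to 12 (P72 4 h against 2 h), 8 to 15 (R72 2 h), 12 to 16 (R72 4 h), 2 to 10 (R72 4 h against 2 h), 0 to 1 and 1 to 2 (P72 against R72 at 2 h and 4 h), 2 to 12 (irradiated p53+/+), 1 to 8 (difference of p53 responses) and 3 to 16 (irradiated p53 genotypes). Dim probes such as Hist1h2ac are limited by background.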
